A study of Mus musculus with 6 samples.

Results

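The open chromatin at 10 genes that make, move or use acetyl-CoA was examined in mouse kidney cortex by ATAC-seq, in which the Tn5 transposase cuts and tags accessible DNA. They are Acly, Acss1, Acss2, Acss3, Acat1, Acat2, Crat, Pdha1, Dlat and Slc33a1, picked by function. For each gene, the accessible intervals (called stretches of open chromatin) that touched the stretch from 3 kb upstream of the gene start to the gene end were taken, which gave 127 of the 279569 intervals of the deposited list. The samples were 3 WT libraries (by the methods, mice with floxed Acly and no Cre) and 3 Acly cKO libraries, in which Ksp-Cre, driven by a promoter active along the tubule epithelium, deletes Acly in tubule cells while other kidney cells keep it. Both groups carry the treatment label Control, and sex and age of these mice are not given in the labels. No batch holds libraries of both genotypes (batches 1 and 2 are WT, 4 and 5 Acly cKO), and the effects of batch and of genotype cannot be told apart. The design text counts more WT libraries than the 3 analysed here, and the files do not show which libraries entered the call.

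The deposited list is 1 call, whose peak names begin with ALL_ATAC and name no library, and it was read as a pool of libraries. Every value below is therefore the authors' value for that call, with no spread between libraries, and the genotypes could not be compared. The height of an interval is given as its fold enrichment, the ratio of stacked reads at its highest summit to the background level of the caller. Every fold enrichment under 20 was a whole multiple of 0.0655, to within 0.05 of a step, and each fold enrichment came with a single −log10 q, so the q value adds no separate evidence and is seldom repeated here. The depth of each library is unknown. In bulk tissue, a low fold enrichment in many cells and a high one in few cells cannot be told apart.

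Acetyl-CoA carries acetyl groups between pathways and cannot cross the inner mitochondrial membrane by itself. The pyruvate dehydrogenase complex makes it in mitochondria, citrate carries it out, and ATP citrate lyase (ACLY) splits citrate to release it in the cytosol and nucleus, where it feeds lipid synthesis and histone acetylation. Acetyl-CoA synthetases make it from acetate, thiolases join or split acetyl units, carnitine acetyltransferase buffers it as acetylcarnitine, and SLC33A1 moves it into the endoplasmic reticulum. Proximal tubule cells, the most common cells of the cortex, draw most of their energy from oxidation in mitochondria.

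All 10 genes had an accessible promoter, defined as an interval within 1 kb of the canonical transcript start. The same was true of 75.8% of 21757 protein-coding genes. All 10 promoters also reached 20-fold, which 49.3% of protein-coding genes did, and 6 of the 10 reached 40-fold. Their fold enrichment ran from 26.7 for Dlat to 62.5 for Acat2 with a median of 43.4, against a median of 30.1 over the 16499 protein-coding promoters with an interval. Of the 10 genes, 9 lay above that median, and Dlat lay below it.

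**Figure D1:**
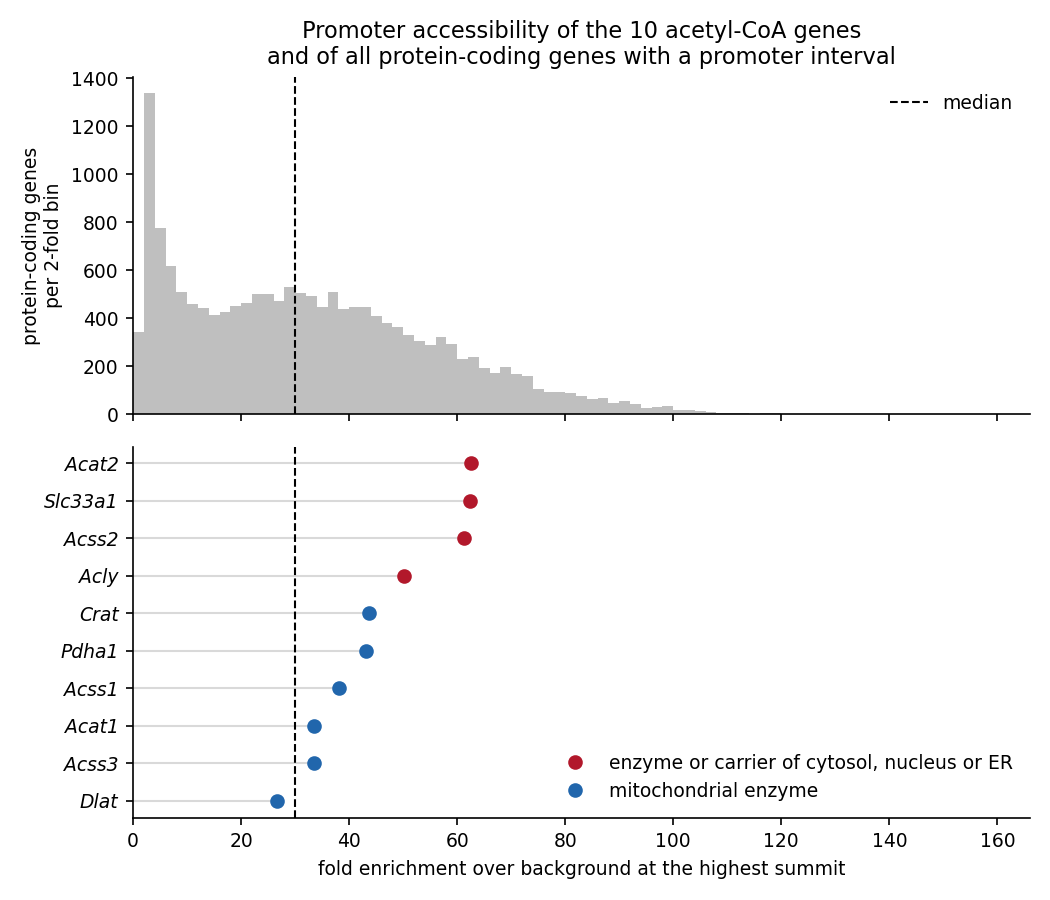
Upper panel, the number of protein-coding genes (vertical axis) by fold enrichment of the promoter interval (horizontal axis, bins of 2-fold). Lower panel, the value of each of the 10 genes, coloured by where the protein works. The dashed line is the median of 30.1 over 16499 genes, and the points run from 26.7 for Dlat to 62.5 for Acat2.

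The promoter stretches of 5 genes are printed here because they span the range from the highest promoter to one of the lowest and differ in the motifs they hold. Each is the 250 bases before the canonical start in GRCm39, read 5′ to 3′ on the gene strand. Capitals mark exact matches, on either strand, to any of 14 promoter and enhancer motifs.
Acly promoter (chr11:100418827-100419076, minus strand): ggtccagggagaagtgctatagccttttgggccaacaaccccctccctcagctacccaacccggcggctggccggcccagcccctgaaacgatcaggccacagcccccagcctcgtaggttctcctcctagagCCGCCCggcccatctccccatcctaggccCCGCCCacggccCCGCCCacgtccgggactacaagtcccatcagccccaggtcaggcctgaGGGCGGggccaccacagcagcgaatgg
Acat2 promoter (chr17:13179642-13179891, minus strand): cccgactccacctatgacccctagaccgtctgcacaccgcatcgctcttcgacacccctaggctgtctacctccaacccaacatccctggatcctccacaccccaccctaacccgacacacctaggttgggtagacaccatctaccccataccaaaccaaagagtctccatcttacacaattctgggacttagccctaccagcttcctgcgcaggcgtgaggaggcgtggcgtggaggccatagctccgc
Pdha1 promoter (chrX:158921426-158921675, minus strand): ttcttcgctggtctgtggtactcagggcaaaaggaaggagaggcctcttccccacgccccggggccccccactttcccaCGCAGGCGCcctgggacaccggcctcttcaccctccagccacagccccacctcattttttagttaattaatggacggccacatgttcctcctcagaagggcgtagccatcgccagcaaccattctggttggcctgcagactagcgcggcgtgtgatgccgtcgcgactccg
Acat1 promoter (chr9:53521732-53521981, minus strand): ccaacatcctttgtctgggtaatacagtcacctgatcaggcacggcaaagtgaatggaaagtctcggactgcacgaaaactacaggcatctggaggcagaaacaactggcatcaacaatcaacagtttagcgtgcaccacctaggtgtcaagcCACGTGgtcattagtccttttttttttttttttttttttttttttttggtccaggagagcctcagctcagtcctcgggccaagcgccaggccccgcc
Acss3 promoter (chr10:106959636-106959885, minus strand): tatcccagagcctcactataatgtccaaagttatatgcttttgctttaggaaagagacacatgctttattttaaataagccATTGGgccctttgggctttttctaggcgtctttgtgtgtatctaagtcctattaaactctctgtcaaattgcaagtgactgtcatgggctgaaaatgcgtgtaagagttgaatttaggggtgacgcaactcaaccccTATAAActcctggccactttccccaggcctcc
In capitals, the Acly stretch holds 4 GC boxes (GGGCGG), a letter pattern bound by SP factors, at 117, 88, 76 and 27 bases before the start. The Pdha1 stretch holds 1 match to NRF1 (GCGCNTGCG), a regulator of mitochondrial genes, at 171 bases before the start. The Acat1 stretch holds 1 E-box (CACGTG) at 97 bases. The Acss3 stretch holds a TATA box (TATAAA) at 32 bases and a CCAAT box at 169 bases. The Acat2 stretch held no whole match to the 14 motifs, although its interval was the highest of the 10, and a GC box that begins 4 bases before its start runs past the printed end.

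Acly, the gene deleted in the cKO mice, had a promoter of 50.2-fold, higher than 77.0% of protein-coding promoters. The interval spanned chr11:100414067-100420132, and its highest summit lay 9 bases downstream of the canonical start, in exon 1. This interval held 14 summits, of which 1 reached 20-fold and the next highest, 703 bases into the gene, reached 11.4-fold. Acly (ENSMUSG00000020917.19, chr11:100367165-100440756, minus strand) had 20 intervals in all. Of the 6 libraries analysed here, 3 came from mice that lack Acly in tubule cells. The floxed stretch is not given in the sources used here, so whether the deletion lowers any of these values was not tested.

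Inside Acly, the strongest interval over 1 kb from every protein-coding start was the strongest such interval of all 10 genes. It lay in intron 3 at chr11:100408780-100412494, had its summit 6944 bases downstream of the canonical start and reached 29.8-fold, higher than 99.3% of the 244418 intervals over 1 kb from any protein-coding start. The interval ends 1930 bases from another annotated start of Acly itself, so with a distance of over 3 kb it drops out, and the 14.6-fold interval in intron 1 of Acss3 leads the 10 genes. The Acly promoter was 1.68 times as high. The next such intervals were weaker, at 6.29-fold in intron 13 and 4.78-fold in intron 8. An interval of 35.8-fold at chr11:100435695-100437260 fell in the annotated span of Acly, but it covers the start of Odad4, a gene of motile cilia, and was counted as the start of another gene.

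Of the 3 acetyl-CoA synthetases, the cytosolic and nuclear ACSS2 had the highest promoter. Acss2 (ENSMUSG00000027605.20, chr2:155355679-155428016, plus strand) reached 61.3-fold at chr2:155357803-155361170, higher than 87.2% of protein-coding promoters, with the summit 28 bases upstream of the start. A start of Ggt7, a gene of the gamma-glutamyltransferase family that runs the opposite way, lies 289 bases into Acss2 within this interval. The canonical start of Ggt7 lies within 1 kb of the interval. Its height cannot be divided between Acss2 and Ggt7, and this holds for the ratios below. The mitochondrial Acss1 (ENSMUSG00000027452.13, chr2:150460020-150510420, minus strand) reached 38.0-fold, and the mitochondrial Acss3 (ENSMUSG00000035948.15, chr10:106769375-106959635, minus strand), which prefers propionate, reached 33.4-fold. The Acss2 value was 1.61 times that of Acss1 and 1.84 times that of Acss3, and the value of Acss1 was 1.14 times that of Acss3. No replicate error was available against which to set these ratios.

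Of these 3 promoters, those of Acss1 and Acss2 differed most in extent. The Acss1 interval spanned 11737 bp at chr2:150501076-150512812, wider than 96.4% of promoter intervals, and held 29 summits with a median of 6.61-fold. One of these, 7154 bases into the gene, reached 26.2-fold, so that this single interval covered a second strong summit besides the 38.0-fold one at 80 bases. The Acss2 promoter interval was 3368 bp wide and held 6 summits, with a median of 2.95-fold and a single summit above 20-fold. Together, intervals covered 61.6% of the Acss1 stretch, more than in 84.1% of protein-coding genes, against 24.9% for Acss2 and 7.49% for Acss3, the longest of the 10 genes. Width depends on how the caller joined neighbouring summits, and a wide interval is not by itself a stronger one.

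**Figure D2:**
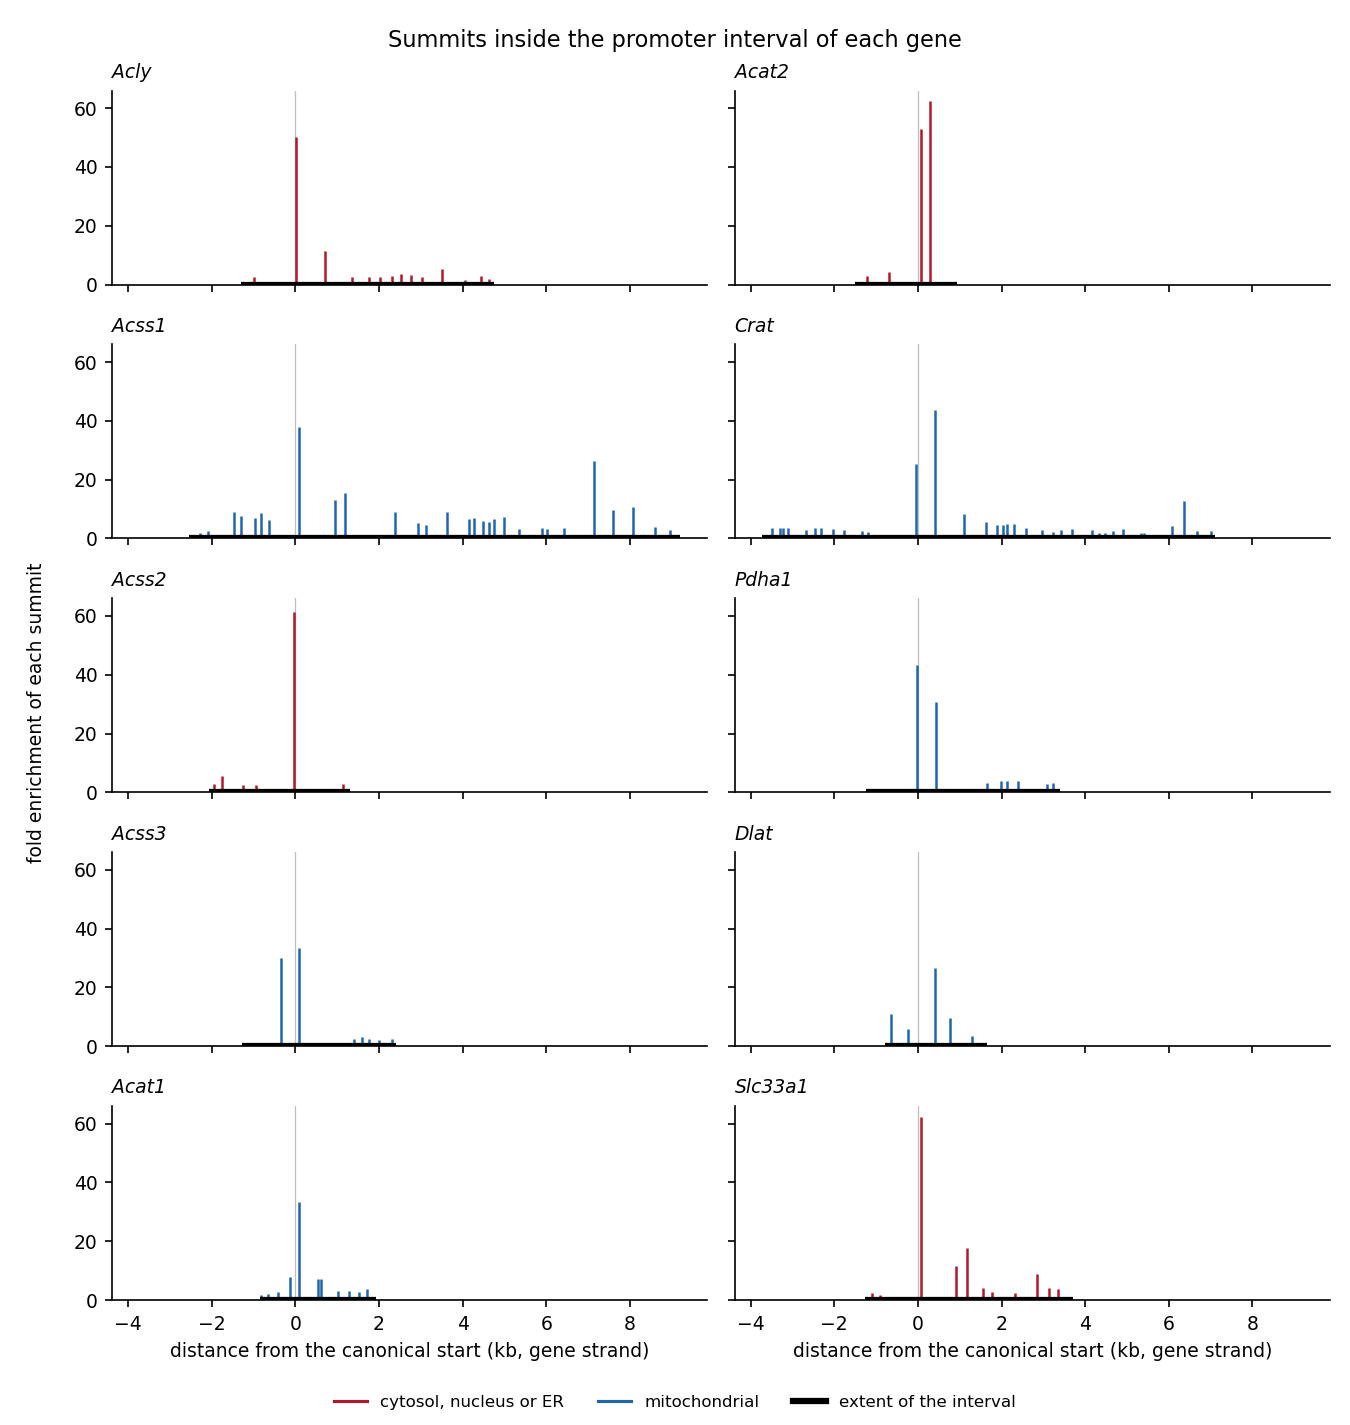
Fold enrichment of every summit (vertical axis) inside the promoter interval of each gene, by distance from the canonical start in kb along the gene strand (horizontal axis). The black bar is the extent of the interval and the colour gives where the protein works. Acss1 and Crat have wide intervals with 29 and 35 summits, while the other 8 intervals hold 4 to 14.

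Away from starts, the synthetase genes held 9 of the 16 intervals of at least 5-fold. Of all 95 intervals away from starts, Acss1 held 18, Acss2 12 and Acss3 20, so this count was near their share. In Acss1, an intronic interval of 9633 bp reached 12.7-fold at 20549 bases from the start, with 30 summits, and a neighbouring one reached 8.71-fold at 13340 bases, both in intron 2. The third strongest reached 4.84-fold in the same intron. In Acss2, the strongest one, of 14.2-fold, lay beyond the canonical Acss2 transcript and inside Gss, the glutathione synthetase gene on the opposite strand, so it cannot be given to Acss2 by position. The next, of 11.1-fold, lay in intron 2 of Acss2 at 23093 bases, and the third, of 5.50-fold, just beyond the canonical end at 45124 bases. In Acss3, intervals of 14.6-fold in intron 1 (7322 bases) and 12.6-fold in intron 8 (134127 bases) stood well above its median of 2.03-fold, and the third reached 6.61-fold beyond the canonical end.

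The sequence around the summits of 5 of these elements is shown because none of these windows overlaps an annotated exon and because 4 of them share a motif. Each is 200 bases of GRCm39 centred on the highest summit, on the strand of the gene, with capitals as above.
Acly element at 6944 bases (chr11:100411782-100411981, minus strand): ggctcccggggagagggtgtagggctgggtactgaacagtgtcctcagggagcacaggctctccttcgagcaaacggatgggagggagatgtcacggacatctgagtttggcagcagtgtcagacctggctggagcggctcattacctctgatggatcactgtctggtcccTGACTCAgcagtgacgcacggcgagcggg
Acss3 element at 7322 bases (chr10:106952213-106952412, minus strand): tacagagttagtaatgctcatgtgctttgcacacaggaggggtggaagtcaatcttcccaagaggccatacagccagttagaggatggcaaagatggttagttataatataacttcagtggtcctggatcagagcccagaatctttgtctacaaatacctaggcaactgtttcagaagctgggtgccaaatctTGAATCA
Acss1 element at 20549 bases (chr2:150489629-150489828, minus strand): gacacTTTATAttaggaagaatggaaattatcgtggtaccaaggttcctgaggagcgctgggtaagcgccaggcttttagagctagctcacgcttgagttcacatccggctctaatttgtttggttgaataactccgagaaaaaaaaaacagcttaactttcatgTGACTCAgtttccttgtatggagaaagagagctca
Acss2 element at 23093 bases (chr2:155382861-155383060, plus strand): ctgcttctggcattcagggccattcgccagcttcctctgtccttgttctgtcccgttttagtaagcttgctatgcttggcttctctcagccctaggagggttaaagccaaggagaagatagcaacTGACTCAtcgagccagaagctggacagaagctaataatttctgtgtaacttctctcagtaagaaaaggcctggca
Acss2 element at 45124 bases (chr2:155404892-155405091, plus strand): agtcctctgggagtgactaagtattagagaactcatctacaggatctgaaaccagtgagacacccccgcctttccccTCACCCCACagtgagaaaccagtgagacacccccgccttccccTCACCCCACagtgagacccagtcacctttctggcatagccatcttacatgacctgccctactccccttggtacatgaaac
The first 4 elements each hold 1 match to the AP-1 motif (TGANTCA), bound by FOS and JUN factors, and the Acss1 element also a match to the TATA box. Over all 16 intervals of the 10 genes away from starts with at least 5-fold, 7 held an AP-1 match, against 20.1% of the 50582 such windows of the whole list. No match to HNF1 (GTTAATNAT), HNF4 (CAAAGTCCA) or ERR (TCAAGGTCA) was found in these 16 windows, where 3.15%, 1.77% and 0.567% of all such windows held one. The DR1 nuclear receptor element (AGGTCANAG) matched in 1 of the 16, the 14.1-fold interval in intron 1 of Acat1, against 3.09% of all such windows. The fifth element holds 2 matches to a sterol response element (TCACCCCAC), the letters through which SREBP factors act, set 43 bases apart. Both matches lie in copies of an exact repeat of 22 bases at that distance, so they are not separate occurrences. Of the 50582 windows, 2 held 2 or more such matches, this one included, and 0.304% held at least 1. This element was singled out after its matches were seen, and its height of 5.50-fold is the lowest of the 16.

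Among the thiolases, the cytosolic Acat2 stood above the mitochondrial Acat1. Acat2 (ENSMUSG00000023832.16, chr17:13161367-13179641, minus strand), which joins acetyl-CoA units at the entry of cholesterol synthesis, had the highest promoter of the 10 genes, at 62.5-fold and above 87.9% of protein-coding promoters. Its interval, chr17:13178717-13181150, held 4 summits, 2 of which were tall, with 52.9-fold at 84 bases and 62.5-fold at 279 bases downstream of the start, the latter in intron 1. Acat1 (ENSMUSG00000032047.7, chr9:53450461-53521731, minus strand), which works in ketone body and isoleucine breakdown, reached 33.5-fold at 79 bases in exon 1, higher than 55.2% of protein-coding promoters. The Acat2 value was 1.87 times that of Acat1.

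Away from starts, the order of these thiolases was turned around. Acat1 had an interval of 14.1-fold in intron 1 at 11646 bases, chr9:53509776-53510899, and further ones of 5.89-fold in intron 3 and 3.86-fold in intron 1. Acat2 had 2 such intervals, at 7.40-fold 2931 bases upstream of the start and at 2.16-fold in intron 4. A further interval of 24.3-fold beyond the end of Acat2 covers the start of Acat3, a thiolase gene closely related to Acat2. The promoters of Acat2 and Acat3 aligned at 49.8% identity over 317 columns, and those of Acat2 and Acat1, genes on different chromosomes, at 49.7%. By the same end-to-end alignment, pairs of the Acss promoters gave 42.8% to 47.8%. Reads in gene bodies shared between Acat2 and Acat3 could still have been removed by the authors' filter for unique mapping, which was not tested.

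The pyruvate dehydrogenase subunits Pdha1 and Dlat had the fewest intervals, in stretches of 20.2 and 30.8 kb. Per 10 kb, Pdha1 had 2.48 and Dlat 1.30, against a median of 1.86 over protein-coding genes. Pdha1 (ENSMUSG00000031299.12, chrX:158904237-158921426, minus strand), the catalytic subunit of the first step, had a promoter of 43.1-fold at chrX:158918019-158922675 with its summit 29 bases upstream of the start, and a second summit of 30.6-fold 437 bases into the gene. Its remaining 4 intervals did not pass 2.82-fold, so the promoter interval was 15.3 times as high as the strongest other interval at the gene. Dlat (ENSMUSG00000000168.12, chr9:50543457-50571277, minus strand), the acetyltransferase subunit, had the lowest promoter of the 10, at 26.7-fold and above 44.9% of protein-coding promoters, with the summit 398 bases downstream in exon 1. Its remaining 3 intervals did not pass 3.01-fold. X-linked Pdha1 is present in 1 copy in male cells, and the sex of the mice is not given, so its level cannot be set against an autosomal gene per copy.

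Crat (ENSMUSG00000026853.17, chr2:30289300-30306340, minus strand), carnitine acetyltransferase, shared its promoter with another gene. Its interval of 43.7-fold spanned 10843 bp at chr2:30298926-30309768, wider than 95.7% of promoter intervals, and intervals covered 86.9% of the Crat stretch, more than in 94.2% of protein-coding genes. It held 35 summits, and only 2 of them reached 20-fold, one of 25.3-fold 43 bases upstream of the Crat start and one of 43.7-fold 409 bases downstream of it. Ptpa, which encodes an activator of protein phosphatase 2A and runs the opposite way, has its canonical start 460 bases into Crat, 51 bases from the taller summit, and other annotated starts of Ptpa lie around the Crat start. The height of this interval cannot be divided between Crat and Ptpa. Besides that promoter, Crat had only weak intervals away from starts, of 3.34-fold in exon 14 and 2.23-fold in intron 4.

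Slc33a1 (ENSMUSG00000027822.18, chr3:63840928-63872231, minus strand), the acetyl-CoA carrier of the endoplasmic reticulum, had a promoter of 62.3-fold at chr3:63868518-63873495, with the summit 83 bases downstream in exon 1 and above 87.8% of protein-coding promoters. Within the interval, further summits reached 17.5-fold at 1171 bases and 11.6-fold at 907 bases. The strongest intervals away from starts, 6.68-fold and 6.29-fold, lay beyond the canonical end within the annotated span, and the third reached 2.62-fold in intron 1. In its promoter window, 2 CCAAT boxes at 69 and 31 bases before the start flanked an E-box at 48 bases.

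In order of height, the promoters ran Acat2 (62.5), Slc33a1 (62.3), Acss2 (61.3), Acly (50.2), Crat (43.7), Pdha1 (43.1), Acss1 (38.0), Acat1 (33.5), Acss3 (33.4) and Dlat (26.7). Acat2 and Slc33a1 were 3 steps of the list's scale apart, Acat1 and Acss3 1 step, and Crat and Pdha1 8 steps, and no spread was available to tell any pair of neighbours apart. The 4 genes whose products work in the cytosol, nucleus or endoplasmic reticulum had the 4 highest promoters (50.2 to 62.5), above the 6 whose products work in mitochondria (26.7 to 43.7), with CRAT counted as mitochondrial although it is also found in peroxisomes. This division was noticed after the values were seen and was not tested. The Acss2 and Crat intervals also hold starts of Ggt7 and Ptpa. Among the 51 pathway genes listed further on, 7 were assigned to the cytosol, nucleus or endoplasmic reticulum and 30 to mitochondria. Of those with a promoter interval, the medians lay in the same order, at 53.2 over 6 genes and 42.9 over 29. The ranges overlapped, from 30.8 to 118 and from 3.40 to 107. The other pathway genes were assigned to neither place. Those with an interval ran from Nat8l at 4.98 and Cpt1c at 7.66, through Acat3 at 24.3 and Hgsnat at 56.0, to Crot at 76.5. With them, the order of the medians could differ, so it rests on which genes were assigned.

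Taken over all 127 intervals, most were low. The median was 2.42-fold, against 2.55-fold over the whole list, and 84 of them (66.1%, Wilson 95% interval 57.5% to 73.8%) were under 3-fold, against 59.0% of the whole list. The Wilson intervals cover counting error only, and intervals of the same gene are not independent. Within 1 kb of an annotated start of the same gene lay 27 of them (21.3%, 15.0% to 29.2%), against 19.0% of 198470 pairs of interval and gene over all protein-coding genes. A further 5 lay within 1 kb of the start of another protein-coding gene only, at 5.43 to 35.8-fold, and the remaining 95 lay away from starts with a median of 2.23-fold. Of these 95, 16 reached 5-fold (16.8%, 10.6% to 25.6%), against 20.7% of the intervals away from starts in the whole list, so the share was near that of the list.

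**Figure D3:**
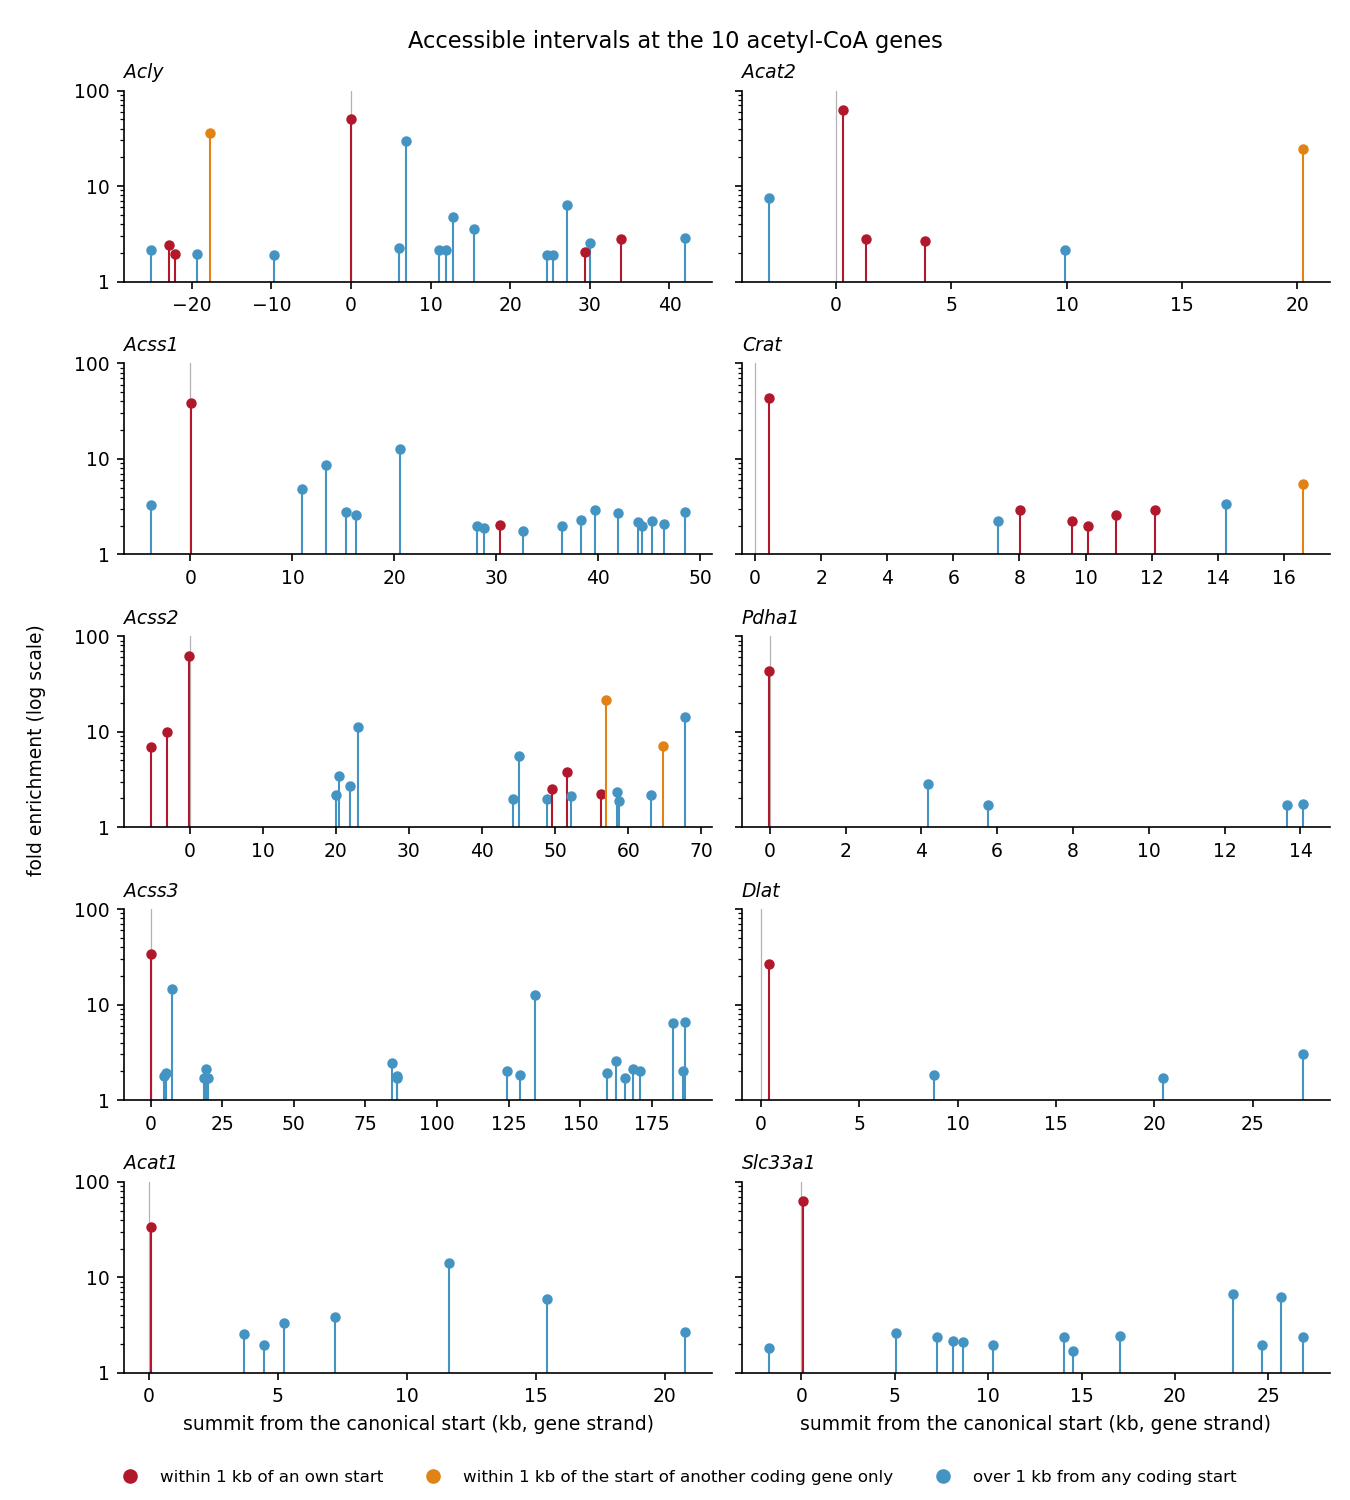
Fold enrichment (vertical axis, log scale) of every interval at the 10 genes by the distance of its highest summit from the canonical start in kb along the gene strand (horizontal axis, own scale for each gene). Colours give how the interval lies to annotated starts. The tallest point of each gene is its promoter, and the tallest point over 1 kb from any coding start is the 29.8-fold one in Acly.

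The genes also differed in how many intervals they held. Acss3 held 21, Acly, Acss1 and Acss2 20 each, Slc33a1 14, Crat 9, Acat1 8, Acat2 6, Pdha1 5 and Dlat 4. Per 10 kb, the numbers ran from 1.08 for Acat1 and 1.09 for Acss3 to 4.08 for Slc33a1 and 4.49 for Crat, against a median of 1.86 over protein-coding genes. Acss2 held the most intervals of at least 5-fold, 8 in all, of which 3 lay away from starts. The rest, its promoter interval included, each lay within 1 kb of a start of Ggt7 or Gss. This count therefore cannot be given to Acss2 alone. Crat, Pdha1 and Dlat held none of at least 5-fold away from starts.

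The summits sat close to the annotated starts. In 7 of the 10 genes the highest summit lay within 100 bases of the canonical start, as it did in 50.6% of protein-coding promoters with an interval. The exceptions were Acat2 at 279 bases, Dlat at 398 bases and Crat at 409 bases, all downstream.

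The base composition of the promoters, taken from 250 bases before to 50 after the start, varied among promoters of similar height. The CpG ratio (observed CpG over that expected from the C and G content) ran from 0.415 in Acss3 to 0.952 in Crat, and the GC content from 44.0% in Acss3 to 69.0% in Crat. The highest promoter, that of Acat2, had a CpG ratio of 0.508, close to the median of 0.517 over all 21757 promoters, while Slc33a1, of nearly the same height, had 0.845. Over 16499 protein-coding promoters with an interval, the fold enrichment tended to be higher at higher CpG ratios (Spearman's rho 0.461 across genes, which are not independent replicates and share 1 pool). Of promoters with a ratio from 0.5 to 0.75, the range that holds 7 of the 10 genes, 69.3% reached 20-fold, and of those from 0.25 to 0.5, where Acss3 lies, 33.3% did.

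**Figure D4:**
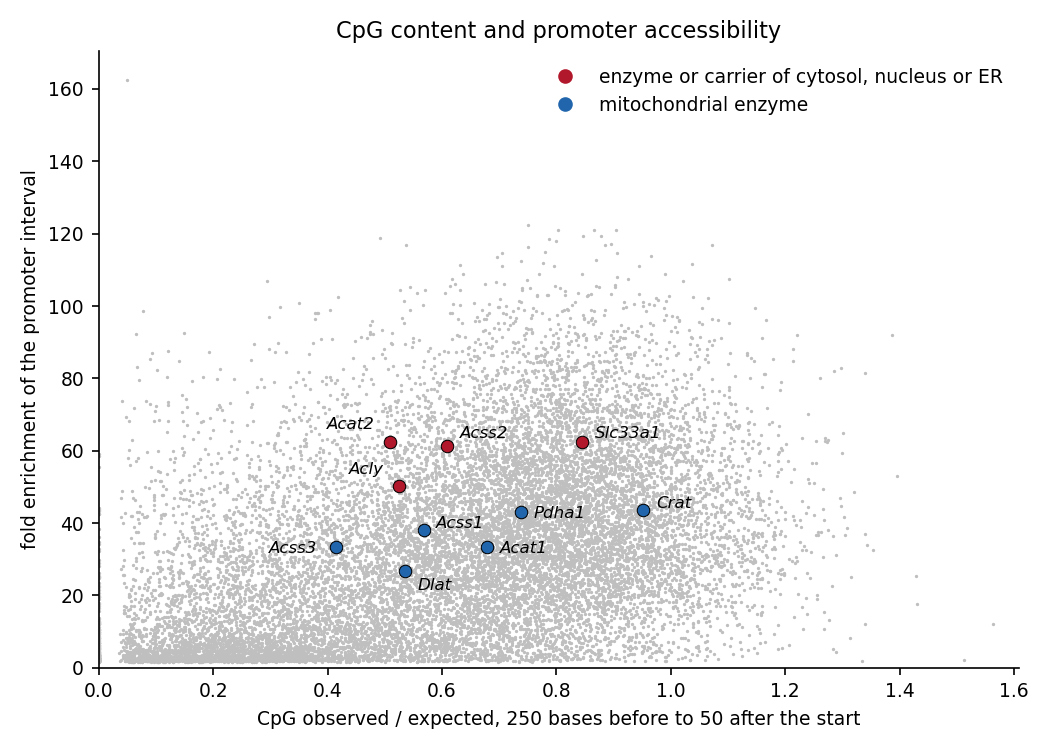
Fold enrichment of the promoter interval (vertical axis) against the CpG ratio of the promoter (horizontal axis). Grey points are the 16499 protein-coding genes with a promoter interval and coloured points the 10 genes. Acat2 and Slc33a1, at 62.5 and 62.3-fold, have CpG ratios of 0.508 and 0.845.

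Of the 14 motifs, the GC box was found in 5 of the 10 promoter windows (Acly, Acss2, Acat1, Acat2 and Dlat), against 42.5% of all protein-coding promoters, and the CCAAT box in 6 (Acly, Acss1, Acss2, Acss3, Acat1 and Slc33a1), against 39.9%. The 4 GC boxes of Acly are a number reached by 6.20% of promoters, and the 3 of Acss2 one reached by 12.2%. ETS (CCGGAAG) matched in Acss2 and Crat against 10.3% of promoters, NRF1 in Pdha1 and Slc33a1 against 8.20%, and the E-box in Acat1 and Slc33a1 against 7.82%. A TATA box was found in Acss3 and Dlat against 13.2%, and only that of Acss3 lay on the gene strand from 36 to 26 bases before the start, as in 1.73% of promoters, a range chosen after its place was seen. No match was found in these windows to YY1 (AAGATGGCG, 1.34% of promoters), CRE (TGACGTCA, 2.45%), the sterol response element (0.529%), ERR (0.473%), the DR1 nuclear receptor element (AGGTCANAG, 1.76%), HNF4 (0.450%), HNF1 (0.809%) or AP-1 (7.15%). A match describes letters only.

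The wider pathway was described with 51 genes in 5 lists that do not include the 10. Of these, 48 had a promoter interval and 37 reached 20-fold, with a median of 39.8-fold over the 48. The pyruvate dehydrogenase list, with its further subunits, kinases, phosphatases and the pyruvate carrier, had the highest median, 62.6-fold. All 12 genes of it with an interval reached 20-fold, led by the kinase gene Pdk4 at 107 and the carrier gene Mpc2 at 93.8. Its weakest were Pdpr at 23.4 and Pdk3 at 36.9, and Pdha2, the testis form of Pdha1, had none. Both Pdha1 (43.1) and Dlat (26.7) thus lay under the median of the genes that work with them, while Pdhb, the partner subunit of Pdha1, stood at 90.0.

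In the citrate export and lipid synthesis list, which surrounds Acly, 6 of 7 genes had a promoter interval and 5 reached 20-fold. Of these 5, 1 did so at a summit 6406 bases downstream of its canonical start. Cs, which makes citrate, reached 64.5, above Acly. The lipid synthase gene Fasn stood at 31.6 and Acacb, the acetyl-CoA carboxylase at mitochondria, was weakest at its canonical start at 11.0, although an interval at another of its annotated starts, with its summit 29551 bases downstream, reached 36.0-fold. Acaca, the cytosolic carboxylase, had no interval within 1 kb of its canonical start, but an interval at another annotated start, with its summit 6472 bases downstream, reached 64.2-fold.

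In the thiolase, ketone body and fatty acid breakdown list, all 14 genes had an interval and 10 reached 20-fold, with a median of 31.1. Hmgcs1, which takes the step after ACAT2 in cholesterol synthesis, reached 118, higher than 99.9% of protein-coding promoters. Acaa1a, a peroxisomal thiolase, reached 60.5. The testis genes Oxct2a at 4.71 and Oxct2b at 3.40 were weakest.

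In the carnitine list, all 7 genes had an interval and 5 reached 20-fold. The peroxisomal acyltransferase gene Crot reached 76.5 and the carnitine importer gene Slc22a5 55.6, both above Crat at 43.7. The muscle and brain forms of carnitine palmitoyltransferase, Cpt1b and Cpt1c, were weakest at 8.84 and 7.66. In the acetyl transfer and hydrolysis list, 9 of 10 had an interval and 5 reached 20-fold, led by Gnpnat1 (61.5) of hexosamine synthesis and Hgsnat (56.0) of lysosomes. Nags, of the urea cycle, at 3.40 and Nat8l, of brain N-acetylaspartate synthesis, at 4.98 were weakest, and Chat, of cholinergic neurons, had none.

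**Figure D5:**
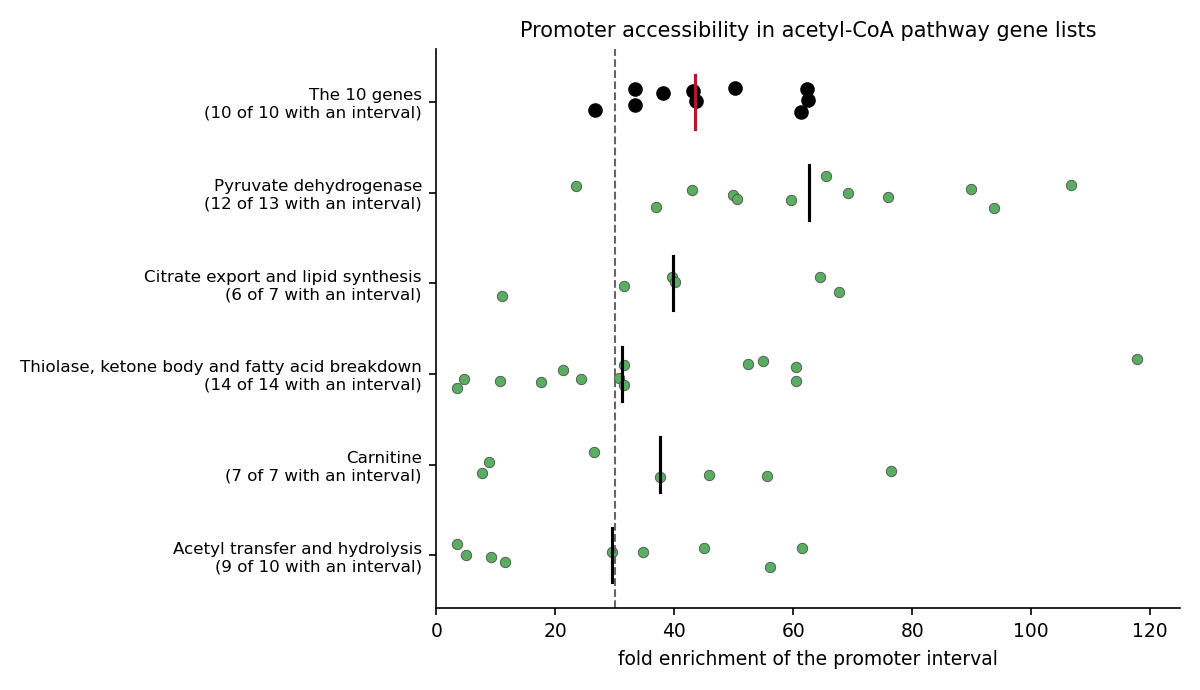
Fold enrichment of the promoter interval (horizontal axis) of each gene with one, in the 10 genes and in 5 pathway lists (rows; the vertical jitter within a row has no meaning). Solid bars are the median of each row, such as 43.4 for the 10 genes and 62.6 for the pyruvate dehydrogenase list, and the dashed line is the median of 30.1 over all protein-coding genes with an interval.

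The tissue label was checked on the same scale. All 5 proximal tubule markers had a promoter interval, from 5.30 to 33.1-fold (highest in Lrp2). So did all 3 of thick limb and distal tubule, from 8.38 to 20.8. For Slc34a1, the 16.2-fold summit lay 18535 bases downstream of the canonical start, in an interval of 20886 bp. The 8.38-fold summit of Slc12a3 lay 1744 bases downstream, and an interval at another of its annotated starts reached 38.2-fold. Collecting duct markers (2 of 3 with an interval) reached at most 4.19, podocyte markers 4.52, endothelial markers 2.75 and immune markers (1 of 2) 1.90. Of 5 genes of other organs, 3 had an interval, and none passed 3.40. Myh6, which had none at its canonical start, had an interval of 4.78-fold at another annotated start. The 10 promoters stood at 26.7-fold or higher, and which cells they were open in was not tested.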

How the data were processed

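ATAC-seq libraries of mouse kidney cortex nuclei were grouped by their labels into 3 WT and 3 Acly cKO libraries. As their methods state, the authors trimmed reads, aligned them to mm39 (GRCm39) with Bowtie2 2.3.4.3, removed duplicates, kept unique reads, called peaks with MACS3 3.0.0 and removed blacklisted regions with bedtools 2.29.1. The methods print the MACS3 shift without a minus sign, which would move reads downstream of each cut, so summit places are uncertain by about that shift. The deposited list is 1 call that names no library and was read as a pool. It gives the fold enrichment of each summit, a linear ratio computed by the authors, its −log10 q as the authors' caller wrote it, and the summit offset in bases. The deposited list of summits before filtering held 874 more summits, 0 of them at the 10 genes.

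Rows were joined into distinct intervals, each described by the summit with the best q, and placed on GENCODE M39 with Python 3.11.15, pandas 2.3.3 and pysam 0.24.0. Genes named from each pathway list were the 2 strongest and 2 weakest and those without an interval, and Pdhb, Fasn and Acat3 were added for their link to a member. Of the pathway genes, 2 are not reported by name here. The members and lists were chosen with earlier results of these data known. No test was run, since 1 call has no replicates. Overlaps and motif searches were tested on simulated data.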

Additional observations from a re-analysis of the deposited data

How the results depend on the processing

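No paired analysis was possible because the single call holds no column for a library, and for the same reason no replicate could be left out. Of the 127 intervals at the 10 genes, 66 passed a stricter q threshold of 1e-05 and 33 passed 5-fold, while counting summits instead gave 404. With a promoter threshold of 40-fold in place of 20-fold, 6 genes passed instead of 10. With 10-fold in place of 5-fold, 7 intervals away from starts passed instead of 16. The share near a start of the same gene, 21.3%, became 7.87% with canonical starts only and 31.8% under the stricter q. Over 14 motifs, 19 matches of promoter and motif were counted in the main window and 12 in 200 bases around the promoter summits, where the E-box and the TATA box matched in 0 of the 10 promoters. The fold enrichment of each of the 10 promoters was the same number under its 3 alternatives. The alternative that takes the highest fold of any summit could not change it, because q rises with fold enrichment in this list. The counts at stricter thresholds are lower by construction, and the cause of the change in motif matches was not tested. The depth of the libraries is unknown and limits every value.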
